A study of Homo sapiens with 4 samples.

Results

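The transforming growth factor β (TGF-β) pathway was followed through 10 genes in triple-negative breast cancer (TNBC) cells treated with mebendazole (MBZ). They encode the 3 ligands (TGFB1, TGFB2 and TGFB3), the kinase receptors TGFBR1 and TGFBR2, the co-receptors TGFBR3 and ENG with the betaglycan-like TGFBR3L, and the induced genes TGFBI and TGFB1I1. The genes were taken by symbol from the Ensembl identifiers of the count table, where they are 10 of 58735 genes. All 10 averaged 10 or more counts across the DMSO and MBZ libraries of each line.

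TGF-β ligands are secreted in a latent form and, once released, bind TGFBR2, which recruits and phosphorylates TGFBR1. The active type I receptor phosphorylates SMAD proteins that enter the nucleus and regulate genes of the matrix, the cytoskeleton and the cell cycle, while betaglycan and endoglin present ligand to the kinases. In breast cancer the pathway restrains division of epithelial cells early and is linked to mesenchymal change, invasion and metastasis later.

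MDA-MB-231 and SUM159 are established human TNBC cell lines. Each was cultured for 72 h with 1 μM MBZ, an antiparasitic drug that binds tubulin, or with its vehicle DMSO, to learn how the drug acts on TNBC transcripts. RNA enriched for mRNA gave 1 library for each line and treatment, 4 in all, with totals of 24897586 counts (MDA-MB-231, DMSO), 17143139 (MDA-MB-231, MBZ), 18708179 (SUM159, DMSO) and 18904501 (SUM159, MBZ). A count of 0 therefore allows a level of up to 0.120 to 0.175 CPM (counts scaled to library size), depending on the library. The MDA-MB-231 cells came from a cell repository and the SUM159 cells from another laboratory. With a single library per condition, no difference within a line has a replicate check in these data. From its RNA sequencing the paper lists members of the TGF-β family, not named in its text, among metastasis genes reduced by MBZ in both lines. By RT-qPCR of these candidate genes it reports a decrease in both lines only for a gene outside that family.

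The lines were first compared with their label. PGR had 0 counts in all 4 libraries, and ESR1 had 1 and 0 counts in the MDA-MB-231 line and 2 and 18 in SUM159 cells with DMSO and MBZ. ERBB2, the remaining receptor gene of the TNBC definition, was expressed, with 1996 and 1353 counts in the MDA-MB-231 line and 1826 and 1216 in SUM159 cells. Of the mesenchymal markers VIM, CD44, CAV1 and AXL, VIM was the most abundant per length in every library, from 210.4 RPKM (counts per kb of exon, scaled to library size) in the MDA-MB-231 line with MBZ to 635 in SUM159 cells with DMSO. Of the luminal markers, KRT8 and KRT18 were expressed in both lines, whereas FOXA1 had at most 46 counts. GATA3, the remaining luminal marker, had 171 and 179 counts in the MDA-MB-231 line and 302 and 121 in SUM159 cells.

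Levels are given below in RPKM, with the trimmed mean (TMM) scaling of edgeR over the 4 libraries, so that genes can be compared per length. Changes are log2 fold changes of MBZ over DMSO with TMM scaling of the 2 libraries of a line. Their 95% intervals follow Clopper and Pearson and cover counting error only, and PCR copies, which the counts do not separate, make even that error too small. In bulk RNA, fewer cells that express a gene and less RNA per cell cannot be told apart.

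In MDA-MB-231 cells, 2 of the 10 genes were at least 1.5-fold higher with MBZ (TGFBR3 and ENG) and 3 were at least 1.5-fold lower (TGFBR3L, TGFBI and TGFB1I1). Of the 15142 genes compared in this line, 18.3% were higher and 15.8% lower by the same rule. In SUM159 cells, 0 of the 10 genes were higher and 6 were lower (TGFB2, TGFBR1, TGFBR3, ENG, TGFBI and TGFB1I1), against 21.5% higher and 21.7% lower among 15674 genes. The median log2 fold change of the 10 genes was 0.025 in the MDA-MB-231 line, beside -0.018 for all genes compared, and -0.79 in SUM159 cells, beside -0.034. TGFBI and TGFB1I1 were the 2 genes lower in both lines, and TGFBR3 and ENG the 2 that lay past 1.5-fold in opposite directions. Of the 13733 genes compared in both lines, 4.71% were lower in both and 6.04% lay in opposite directions by this rule.

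Scaling by total counts instead of TMM would raise the log2 fold changes of all genes by a median of 0.27 in the MDA-MB-231 line and 0.30 in SUM159 cells. With it, TGFBR1 and ENG were no longer 1.5-fold lower in SUM159 cells, which left 4 genes lower, and the 5 calls in the MDA-MB-231 line were as before.

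**Figure D1:**
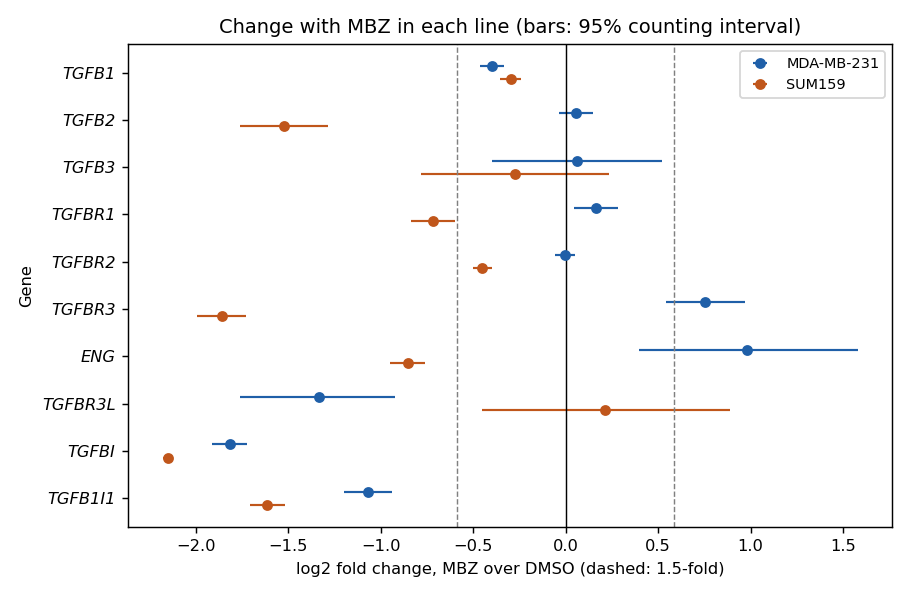
Log2 fold change of MBZ over DMSO (x axis) for each of the 10 genes (y axis) in MDA-MB-231 (blue) and SUM159 (orange) cells, with 95% counting intervals as bars and 1.5-fold as dashed lines. TGFBI and TGFB1I1 lie left of the dashed line in both lines, and TGFBR3 and ENG lie on opposite sides of 0.

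**Figure D2:**
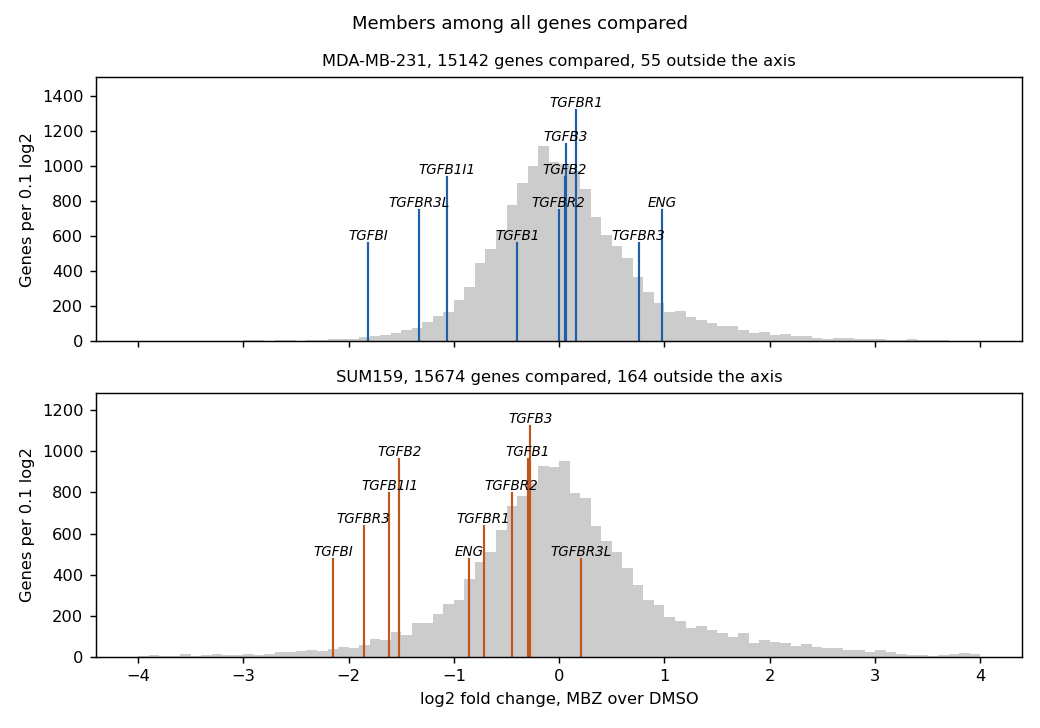
Histograms of the log2 fold changes (x axis) of all genes compared in MDA-MB-231 (top, 15142 genes) and SUM159 cells (bottom, 15674 genes), as genes per bin (y axis), with the 10 genes marked by lines whose height has no meaning. In SUM159 cells TGFBR3L is the gene to the right of 0, at 0.21, and it moves to 0.51 with scaling by total counts, which also brings TGFB1 and TGFB3 just above 0.

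Of the ligands, TGFB1 (ENSG00000105329, minus strand of chromosome 19, 41301587 to 41353922, GRCh38, 7 exons) encodes the isoform most studied in tumors. Its level was 65.7 with DMSO and 50.5 with MBZ in the MDA-MB-231 line, and 87.7 and 71.3 in SUM159 cells. It was thus the most abundant ligand in every library, and its MBZ library was the lower of the pair in both lines. The log2 fold changes were -0.40 in the MDA-MB-231 line (interval -0.46 to -0.33) and -0.30 in SUM159 cells (interval -0.36 to -0.24), which lay outside counting error but within 1.5-fold, and the latter was 0.0034 with scaling by total counts. Its exons share 215 bases with HNRNPUL1 on the opposite strand, whose counts were 15515 and 6721 in the MDA-MB-231 line and 7476 and 7431 in SUM159 cells.

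TGFB2 (ENSG00000092969, plus strand of chromosome 1, 218345336 to 218444619, 7 exons) encodes the ligand that depends most on betaglycan to reach TGFBR2. The MDA-MB-231 libraries held 2106 counts with DMSO and 1811 with MBZ, and the SUM159 libraries 493 and 214. Per length these are levels of 15.0, 15.7, 4.92 and 1.72, so that the SUM159 library with MBZ was the lowest and the MDA-MB-231 libraries stood close together. The difference with MBZ was a log2 fold change of 0.055 in the MDA-MB-231 line, with an interval from -0.037 to 0.15, and of -1.52 in SUM159 cells (interval -1.76 to -1.29). Among the genes compared in SUM159 cells, TGFB2 was at rank 741 from the lowest.

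The region before the start of TGFB2 is shown with those of TGFBI and TGFBR3, since these are the 3 genes with the largest log2 fold changes in SUM159 cells whose windows hold no protein-coding exon. The windows are the 250 bases before the RefSeq start on GRCh38.p14, 5′ to 3′ on the strand of the gene, and RefSeq windows were matched for all 10 genes.
TGFB2, plus strand, chr1:218345086-218345335: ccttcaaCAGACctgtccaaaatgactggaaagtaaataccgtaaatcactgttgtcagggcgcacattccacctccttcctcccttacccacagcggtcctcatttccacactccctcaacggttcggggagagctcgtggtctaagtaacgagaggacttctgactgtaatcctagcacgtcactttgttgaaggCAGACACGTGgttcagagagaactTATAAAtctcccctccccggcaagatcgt
TGFBI, plus strand, chr5:136028738-136028987: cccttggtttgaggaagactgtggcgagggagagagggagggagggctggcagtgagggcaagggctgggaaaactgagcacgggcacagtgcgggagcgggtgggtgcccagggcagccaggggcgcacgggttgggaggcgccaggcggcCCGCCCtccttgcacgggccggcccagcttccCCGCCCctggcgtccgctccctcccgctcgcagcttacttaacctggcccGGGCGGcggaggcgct
TGFBR3, minus strand, chr1:91886152-91886401: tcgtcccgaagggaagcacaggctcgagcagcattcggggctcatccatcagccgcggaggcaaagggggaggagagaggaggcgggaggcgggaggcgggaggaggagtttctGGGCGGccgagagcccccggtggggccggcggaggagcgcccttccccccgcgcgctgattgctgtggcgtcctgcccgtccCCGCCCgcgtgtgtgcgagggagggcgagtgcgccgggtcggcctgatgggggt
Capitals mark motifs found on either strand, of which the SMAD box was searched as CAGAC, the GC box as GGGCGG, the TATA box as TATAAA, the E-box as CACGTG and the AP-1 site as TGANTCA, besides the CArG box. The window of TGFB2 held 2 SMAD boxes, 1 TATA box and 1 E-box that overlaps a SMAD box, and no GC box. That of TGFBI held 3 GC boxes and that of TGFBR3 held 2, and none of the other motifs was found in either. Among 35116 RefSeq promoter windows of the same length, 38.0% held a SMAD box, 42.6% a GC box, 10.7% a TATA box, 6.34% an E-box, 6.57% an AP-1 site and 1.16% a CArG box. A match describes letters and is not a site of binding. The TGFB2 window lies within an exon of the antisense lncRNA TGFB2-AS1, the TGFBI window in no annotated exon or transcript, and the TGFBR3 window in an intron of longer TGFBR3 transcripts.

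TGFB2-AS1 shares 701 exonic bases with TGFB2, and its own counts were 177 and 119 in the MDA-MB-231 line and 33 and 20 in SUM159 cells. TGFB2-OT1, on the same strand, shares 1371 bases and had 0 counts in all 4 libraries. Union counting sets aside reads that fall in shared exons. For TGFB2-OT1, on the same strand and also counted, this holds whatever the strand setting, so TGFB2 reads in those bases are missing from all 4 libraries. Whether strand was used is not stated, so reads in the bases shared with TGFB2-AS1 may be missing too.

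TGFB3 (ENSG00000119699, minus strand of chromosome 14, 75958097 to 75983011, 7 exons), the ligand best known from palate and lung development, was near the lower end of the 10 genes. It had 89 and 77 counts in the MDA-MB-231 line and 67 and 69 in SUM159 cells with DMSO and MBZ. The 4 levels, from 0.641 to 0.776, had overlapping intervals, and no difference with MBZ was detectable at this depth, with intervals on the log2 scale from -0.40 to 0.52 and from -0.78 to 0.23.

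Taken per length, TGFB1 made up 80.7% of ligand transcripts in the MDA-MB-231 line with DMSO and 75.3% with MBZ, and 93.9% and 96.8% in SUM159 cells. The share of TGFB1 was thus smaller with MBZ in the MDA-MB-231 line and larger in SUM159 cells. The ratio of TGFB1 to TGFB2 per length was 4.38 with DMSO and 3.21 with MBZ in the MDA-MB-231 line, with counting intervals of 4.17 to 4.62 and 3.03 to 3.40. In SUM159 cells it was 17.8 with DMSO (interval 16.2 to 19.6) and 41.6 with MBZ (interval 36.3 to 47.9), and a ratio within a library does not depend on scaling. It does depend on exon length, and that of TGFB2 includes the 22.7% shared with TGFB2-OT1, whose reads are set aside. Levels of TGFB2 are thus likely too low, and these ratios and TGFB1 shares too high. For TGFB1, reads in the 6.59% of exon length shared with HNRNPUL1 may be missing. The intervals leave out both.

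**Figure D3:**
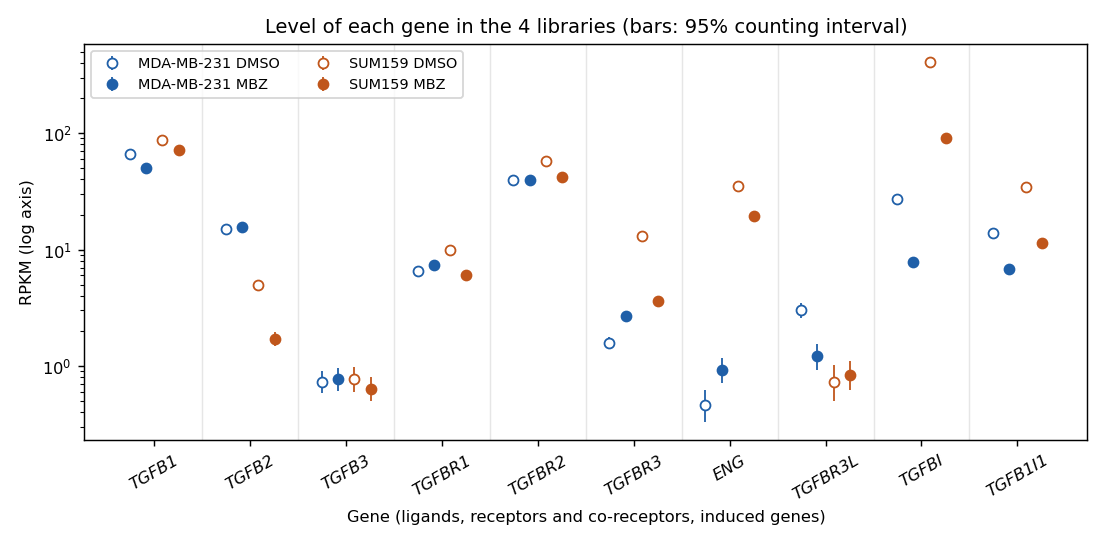
Level of each gene in RPKM (y axis, log axis) in the 4 libraries, with open circles for DMSO, filled circles for MBZ and 95% counting intervals as bars. TGFBI reaches 405 in SUM159 cells with DMSO, and ENG lies between 0.459 and 0.918 in the MDA-MB-231 line.

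Among the receptors, TGFBR2 (ENSG00000163513, plus strand of chromosome 3, 30606601 to 30694142, 7 exons) encodes the constitutively active kinase that binds ligand first. Its level was 39.3 with DMSO and 39.7 with MBZ in the MDA-MB-231 line, and 57.4 and 42.0 in SUM159 cells. It stood after TGFB1 in the MDA-MB-231 line and after TGFBI and TGFB1 in SUM159 cells, and SUM159 cells with DMSO were the highest library. The log2 fold change was -0.0039 in the MDA-MB-231 line (interval -0.057 to 0.050, and 0.26 with scaling by total counts) and -0.45 in SUM159 cells (interval -0.50 to -0.40), short of 1.5-fold.

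TGFBR1 (ENSG00000106799, plus strand of chromosome 9, 99104038 to 99154192, 9 exons) encodes the type I kinase that phosphorylates SMAD2 and SMAD3. The MDA-MB-231 libraries held 1215 counts with DMSO and 1127 with MBZ, levels of 6.54 and 7.42. SUM159 cells had 1306 and 989 counts, from a level of 9.87 with DMSO. The order of the 2 treatments was opposite in the lines, with MBZ slightly higher in the MDA-MB-231 line and lower in SUM159 cells. The log2 fold changes were 0.16 (interval 0.046 to 0.28) and -0.72 (interval -0.84 to -0.60). Scaling by total counts gave -0.42 in SUM159 cells.

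TGFBR2 exceeded TGFBR1 in every library, by a ratio per length of 6.01 (interval 5.65 to 6.39) with DMSO and 5.35 (5.01 to 5.71) with MBZ in the MDA-MB-231 line. In SUM159 cells the ratio was 5.81 (5.48 to 6.17) with DMSO, and its interval with MBZ was 6.54 to 7.49. The interval of SUM159 cells with MBZ lay above the other 3, which overlap one another.

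Of the co-receptors, TGFBR3 (ENSG00000069702, minus strand of chromosome 1, 91680343 to 91906335, 17 exons) encodes betaglycan, which presents TGF-β2 in particular. Its level was 1.58 with DMSO and 2.70 with MBZ in the MDA-MB-231 line, and 13.0 and 3.60 in SUM159 cells. SUM159 cells with DMSO stood apart from the other 3 libraries, and the lines lay closer to each other with MBZ than with DMSO. The counts were 315 and 440 in the MDA-MB-231 line, which is a log2 fold change of 0.75 with an interval from 0.54 to 0.97. In SUM159 cells they were 1852 and 636, or -1.86 (interval -1.99 to -1.73).

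ENG (ENSG00000106991, minus strand of chromosome 9, 127815013 to 127854658, 15 exons) encodes endoglin, a co-receptor for BMP9 and TGF-β best known from endothelium. Its counts were as low as 41 with DMSO and 67 with MBZ in the MDA-MB-231 line, against 2227 and 1534 in SUM159 cells. The lines were far apart with either treatment, SUM159 cells being 76.0-fold higher with DMSO (log2 difference 6.25, interval 5.81 to 6.73). The log2 fold change with MBZ was 0.98 in the MDA-MB-231 line (interval 0.40 to 1.58) and -0.85 in SUM159 cells (interval -0.95 to -0.76), which became -0.55 with scaling by total counts. An antisense lncRNA shares 313 exonic bases with ENG and had 25 and 27 counts in the MDA-MB-231 line and 43 and 47 in SUM159 cells. As with TGFB2 and its antisense lncRNA, reads of ENG in the shared bases may be missing from the counts.

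Endothelial and blood cells also use endoglin, and their markers were counted in the same libraries. The 5 endothelial markers summed to 445 and 427 counts in the MDA-MB-231 line with DMSO and MBZ and to 683 and 878 in SUM159 cells. Most of this was PECAM1, with levels of 2.03 and 2.23 in the MDA-MB-231 line and 5.11 and 5.17 in SUM159 cells. As levels the sums were higher with MBZ in both lines, from 2.56 with DMSO in the MDA-MB-231 line and from 5.32 to 5.53 in SUM159 cells. CDH5, which defines endothelium, had 0 counts in both MDA-MB-231 libraries and 1 and 6 counts in those of SUM159 cells. The 4 blood markers summed to levels of 1.73 and 1.95 in the MDA-MB-231 line and to 18.4 and 3.58 in SUM159 cells, most of it CD14. CD14 went from 477 to 110 counts and PTPRC from 216 to 60 in SUM159 cells with MBZ, in the direction of ENG and TGFBR3, while the macrophage gene CD68 had 3 and 2 counts and LYZ 0 and 4. In the MDA-MB-231 line, where ENG and TGFBR3 were higher with MBZ, PTPRC went from 8 to 23 counts and VWF from 10 to 19. KDR went from 65 to 76 and LYZ from 13 to 17, while CD14 went from 53 to 40 (log2 fold change -0.13) and PECAM1 was at 0.12. Of the markers compared in this line, 3 endothelial ones lay above 0 and 0 below, and 2 blood ones above and 1 below. In SUM159 cells, where ENG was lower, KDR went from 2 to 20 counts and VWF from 20 to 21 (log2 fold change -0.24). The part of these markers in the values of ENG was not tested.

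TGFBR3L (ENSG00000260001, plus strand of chromosome 19, 7914830 to 7919097, 6 exons) encodes a betaglycan-like membrane protein known from the pituitary. Its level was 3.01 with DMSO and 1.21 with MBZ in the MDA-MB-231 line, and 0.725 and 0.839 in SUM159 cells. MDA-MB-231 cells with DMSO were the highest library, with 198 counts against 34 to 65 in the others. The log2 fold change was -1.33 in the MDA-MB-231 line (interval -1.76 to -0.92), and in SUM159 cells the interval from -0.45 to 0.89 does not separate the libraries.

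Summed per length, the 5 receptor and co-receptor genes stood at 50.9 with DMSO and 51.9 with MBZ in the MDA-MB-231 line, and at 116 and 71.8 in SUM159 cells. ENG made up 30.2% of the sum in SUM159 cells with DMSO and 27.0% with MBZ, against 0.903% and 1.77% in the MDA-MB-231 line. TGFBR3 went from 11.2% to 5.01% in SUM159 cells and from 3.10% to 5.20% in the MDA-MB-231 line. TGFBR2 was the largest part in every library, from 49.5% in SUM159 cells with DMSO to 77.2% in the MDA-MB-231 line with DMSO.

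Of the induced genes, TGFBI (ENSG00000120708, plus strand of chromosome 5, 136028988 to 136063818, 17 exons) encodes a secreted matrix protein with FAS1 domains that binds collagens and integrins. The MDA-MB-231 libraries held 4877 counts with DMSO and 1147 with MBZ, and the SUM159 libraries 51740 and 14514, or levels of 27.2, 7.82, 405 and 91.2. Both MBZ libraries were lower than the DMSO library of their line, and SUM159 cells with MBZ still stood above MDA-MB-231 cells with DMSO. The log2 fold change was -1.82 in the MDA-MB-231 line (interval -1.91 to -1.72), a 3.52-fold lower level at rank 111 from the lowest. In SUM159 cells it was -2.15 (interval -2.18 to -2.12), a 4.44-fold lower level at rank 308. No other annotated gene shares exonic bases with TGFBI.

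TGFB1I1 (ENSG00000140682, plus strand of chromosome 16, 31471585 to 31477960, 11 exons) encodes HIC-5, a LIM-domain adaptor of focal adhesions related to paxillin. Its level was 14.0 with DMSO and 6.76 with MBZ in the MDA-MB-231 line, and 34.6 and 11.3 in SUM159 cells. As with TGFBI, the MBZ library was the lower of the pair in both lines. For TGFB1I1, unlike TGFBI, SUM159 cells with MBZ lay below MDA-MB-231 cells with DMSO. The log2 fold changes were -1.07 (interval -1.20 to -0.94) and -1.61 (interval -1.71 to -1.52). A gene model on the opposite strand shares 118 exonic bases and had 3 to 25 counts.

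In the order of levels, TGFBI was first in SUM159 cells with either treatment, followed by TGFB1, TGFBR2 and ENG, and TGFB1 was first in the MDA-MB-231 line, followed by TGFBR2. Neighbors whose counting intervals overlap were TGFB2 with TGFB1I1 and TGFB3 with ENG in the MDA-MB-231 line with DMSO. With MBZ in this line they were TGFBI with TGFBR1, TGFBR1 with TGFB1I1, and TGFBR3L, ENG and TGFB3 in turn. In SUM159 cells they were ENG with TGFB1I1 and TGFB3 with TGFBR3L with DMSO, and TGFBR3L with TGFB3 with MBZ. All other neighbors in these 4 orders were separated beyond counting error, which leaves out errors in exon length.

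With DMSO, the lines differed most in ENG, in TGFBI (14.9-fold higher in SUM159 cells), in TGFBR3 (8.25-fold higher) and in TGFBR3L (4.14-fold higher in the MDA-MB-231 line). TGFB2 was 3.04-fold higher in the MDA-MB-231 line and TGFB1I1 2.48-fold higher in SUM159 cells. TGFB1, TGFBR1 and TGFBR2 were 1.34-fold to 1.51-fold higher in SUM159 cells, and TGFB3 did not separate the lines. These ratios compare 1 library of each line. The paper describes different culture media for the lines, with insulin and hydrocortisone for SUM159 cells, so line and medium cannot be told apart. The 10 genes together held 0.0877% of all counts in the MDA-MB-231 line with DMSO and 0.0801% with MBZ, against 0.385% and 0.159% in SUM159 cells.

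A change alike in both lines is the comparison whose spread comes from the data, since the lines then stand in for replicates in edgeR's quasi-likelihood test with line and treatment in the model. Of 16100 genes tested, 0.00621% (1 gene) were higher and 0% lower at an adjusted p under 0.05, and 629 and 521 had an unadjusted p under 0.05. DESeq2 called 41 genes higher and 55 lower among the same 16100, of which 2497 had no adjusted p. None of the 10 genes was called by the edgeR test, 2 had an unadjusted p under 0.05, and 2 were called by DESeq2. These were TGFBI and TGFB1I1, each lower in both lines. The shared log2 fold change of TGFBI was -1.94 (standard error 0.42, unadjusted p = 0.00252, adjusted p = 0.441 by edgeR with Benjamini-Hochberg adjustment), and over the alternatives its adjusted p ranged from 1.37e-06 with DESeq2 to 1.00 without cell line in the model. That of TGFB1I1 was -1.30 (standard error 0.30, unadjusted p = 0.00378, adjusted p = 0.471 by the same test), with a range from 0.0228 when all genes with a count are tested to 1.00 without cell line. The adjusted p of the other 8 genes was at least 0.777 in the main edgeR test. Over the alternatives it was at least 0.713, for TGFB2 by edgeR with another normalization (RLE). With the lines as replicates, a difference in response between them counts as error, and nothing is learned of the spread between cultures.

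Genes known to be induced by TGF-β were taken as a list of 25, chosen with earlier results of these data known. It includes TGFBI and TGFB1I1, which are among the lower genes counted below in each line and in both. The list leaves out 1 gene that is not reported, removed after its values were seen, and the counts and medians below are those without it. In MDA-MB-231 cells 6 of the 23 compared were at least 1.5-fold higher (26.1%, against 18.3% of all genes) and 10 lower (43.5%, against 15.8%). In SUM159 cells 6 of 23 were higher (26.1%, against 21.5%) and 9 lower (39.1%, against 21.7%). The medians were -0.28 and -0.10, beside -0.018 and -0.034 for all genes, and 6 genes were lower and 2 higher in both lines among 22 compared in both, against 4.71% lower and 6.12% higher in both among all genes. SPHK1, which encodes a sphingosine kinase, had the largest positive value in SUM159 cells at an average of 100 or more counts, 2.30, and stood at 0.83 in the MDA-MB-231 line. FN1, which encodes the matrix protein fibronectin, lay with TGFBI, at -1.13 in the MDA-MB-231 line and -2.87 in SUM159 cells. PMEPA1, a target that dampens SMAD signaling, had the largest negative value in the MDA-MB-231 line, -2.18, and -0.37 in SUM159 cells. JUNB, an AP-1 factor, had the largest positive value in the MDA-MB-231 line among those averaging 100 or more counts, with 861 counts with DMSO and 1638 with MBZ, and stood at a log2 fold change of 0.11 in SUM159 cells. In the shared test 0 of the 23 genes tested were called by edgeR, while 2 higher and 7 lower had an unadjusted p under 0.05. Among all 16100 genes tested, 629 were higher and 521 lower by the latter rule. When all genes with a count are tested, edgeR called TGFBI, FN1, ACTA2 and TGFB1I1 lower and IL11 and SPHK1 higher. DESeq2 called TGFBI, TGFB1I1 and FN1 lower. Among all genes, these 2 settings called 153 higher and 145 lower, and 41 higher and 55 lower.

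**Figure D4:**
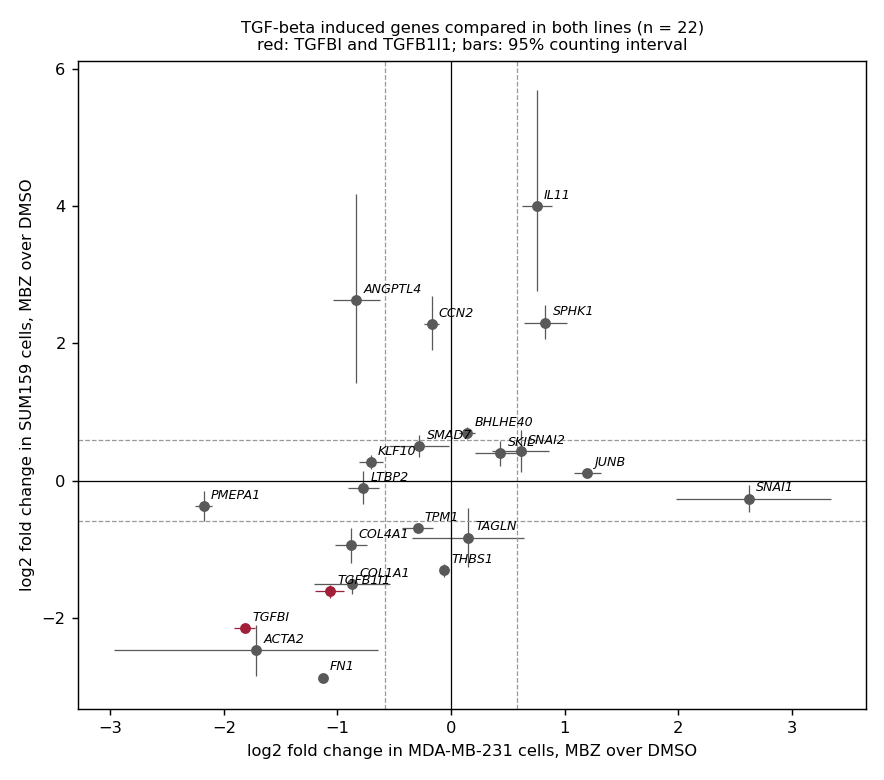
Log2 fold change of MBZ over DMSO in the MDA-MB-231 line (x axis) and SUM159 cells (y axis) for the 22 TGF-β induced genes compared in both lines, with 95% counting intervals as bars and 1.5-fold as dashed lines. TGFBI and TGFB1I1 (red) lie with FN1 and ACTA2 at the lower left, and SPHK1 and IL11 at the upper right.

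The lists that follow are to be read beside all genes compared, of which 18.3% were higher and 15.8% lower in the MDA-MB-231 line, and 21.5% and 21.7% in SUM159 cells, with medians of -0.018 and -0.034. Genes that store or release latent TGF-β (16 genes) had 2 higher (14.3%) and 4 lower (28.6%) of 14 compared in the MDA-MB-231 line, and 2 higher (13.3%) and 7 lower (46.7%) of 15 in SUM159 cells. Their medians were -0.24 and -0.38. The metalloprotease MMP14 was the most abundant per length in both lines. The largest values at an average of 100 or more counts were those of the integrins ITGB8 (0.67) and ITGB5 (-1.21) in the MDA-MB-231 line and of the proprotein convertase FURIN (0.060) and the microfibril gene FBN1 (-1.56) in SUM159 cells.

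SMAD signaling was represented by 16 genes, with 0 higher and 4 lower (25%) in the MDA-MB-231 line and 1 higher (6.25%) and 3 lower (18.8%) in SUM159 cells, against 15.8% and 21.7% lower among all genes. The medians were -0.27 and 0.14. The pseudoreceptor BAMBI had the largest positive value in SUM159 cells, 1.73, and the common partner SMAD4 the largest negative one, -0.83. In the MDA-MB-231 line the largest positive value was that of SKIL, a SMAD corepressor, at 0.43 and within 1.5-fold, and the largest negative one that of PMEPA1, -2.18. PMEPA1, SKIL and SMAD7 are in the induced list as well. FKBP1A, which binds TGFBR1, had the highest level of the list with DMSO in both lines, and STRAP, which binds the receptors and SMAD7, with MBZ.

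Related receptors and ligands were compared with the receptors and ligands above. Of 10 other receptors of the superfamily, 7 were compared in each line, with 1 higher (14.3%, against 18.3% of all genes) and 0 lower in the MDA-MB-231 line and 1 higher (14.3%, against 21.5%) and 3 lower (42.9%, against 21.7%) in SUM159 cells. The most abundant of them with DMSO, the activin receptor ACVR1B in the MDA-MB-231 line (level 4.65) and the BMP receptor BMPR1A in SUM159 cells (4.43), stood below TGFBR1. The activin receptor ACVR2A had the largest negative value in SUM159 cells, -1.57. A list of 17 genes held other ligands and BMP1, a procollagen protease named with them. In each line 11 were compared, with 4 higher (36.4%, against 18.3% of all genes) and 3 lower (27.3%, against 15.8%) in the MDA-MB-231 line. In SUM159 cells 6 were higher (54.5%, against 21.5%) and 3 lower (27.3%, against 21.7%), the stress-induced GDF15 having the largest positive value in both (2.23 and 1.19) at an average of 100 or more counts. BMP4 had a level of 102 in the MDA-MB-231 line with DMSO, above that of TGFB1. The largest negative values under the same limit were those of BMP8B (-1.59) in the MDA-MB-231 line and of BMP1 (-1.06) in SUM159 cells.

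The relatives of TGFBI with FAS1 domains and of TGFB1I1 with LIM domains made a list of 6, of which 1 was higher and 1 lower of 4 compared in the MDA-MB-231 line and 2 higher and 1 lower of 3 in SUM159 cells. Among all genes the shares were 18.3% and 15.8%, and 21.5% and 21.7%. POSTN, the closest relative of TGFBI, had at most 3 counts in any library. The adaptor ZYX was lower in both lines (-0.66 and -0.61), and LPXN, a paxillin relative, stood at 0.12 and 1.77, unlike TGFB1I1.

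Pattern likeness was taken as the distance between log2 levels centered over the 4 libraries, among 11151 other genes that average 100 or more counts. The genes nearest to TGFBI were LOXL1, PCDHGC3 and IFITM1, at distances of 0.34, 0.41 and 0.56 on the log2 scale. Those nearest to TGFB1I1 were CACNB3, DDR1 and DNAJC4, at 0.15, 0.19 and 0.21. TGFBR3 was nearest to MPP7, HCP5 and ARID5B (0.16, 0.23 and 0.25), and TGFB2 to STAT5A, THBS1 and RRAGD (0.14, 0.19 and 0.24). With 4 libraries such distances describe these libraries only.

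Transcripts of G2/M genes differed between the libraries as well. The 20 G2/M genes summed to 117084 counts with DMSO and 50424 with MBZ in the MDA-MB-231 line, and to 7931 and 49784 in SUM159 cells, so that SUM159 cells with DMSO were the lowest library. In MDA-MB-231 cells 17 of the 20 were lower by 1.5-fold or more, their median being -1.03, and in SUM159 cells 20 of 20 were higher, with a median of 2.38. SUM159 cells with DMSO were also the library with the highest TGFBI, ENG, TGFBR3 and TGFB1I1, and the part of the cell cycle in those values was not tested. With MBZ, TGFBI and TGFB1I1 were at least 1.5-fold lower in both lines. TGFBR3, ENG and TGFBR1 were higher in the MDA-MB-231 line (0.75, 0.98 and 0.16) and lower in SUM159 cells (-1.86, -0.85 and -0.72). The G2/M medians also had opposite signs in the lines, and the part of the cell cycle in these changes was not tested.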

How the data were processed

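The authors mapped paired reads of 4 libraries to GRCh38 with STAR 2.5 and counted reads per gene with HTSeq 0.6.1 in union mode, and edgeR 3.16.5 stands in their processing notes. They deposited raw counts of 58735 genes, without normalization. The annotation release and strand setting are not given in the sources used here. Every column of counts was used.

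The Ensembl identifiers of 58207 genes gave a symbol. Exon lengths, exon numbers and overlaps come from GENCODE release 44 on GRCh38, which may differ from the authors' release. Level (RPKM) was the count divided by union exon length and TMM library size. R 4.3.3 with edgeR 4.0.16 gave TMM factors, and a fold change is the difference of log2 CPM with a small prior count, compared where a gene averages 10 or more counts in the 2 libraries of a line. Where 1 of 2 libraries had 3 or fewer counts, list medians were also computed against 3 counts. The quasi-likelihood test of edgeR served for changes alike in both lines (filterByExpr, Benjamini-Hochberg adjustment over all genes tested), with DESeq2 1.42.0 as an alternative. The functions were tested on simulated counts.

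The 10 genes and the gene lists were chosen with earlier results of these data known. The text names all 10 genes and, from the lists, mostly genes with the largest positive or negative value at an average of 100 or more counts, or the highest level. SPHK1 and FN1 are those of SUM159 cells. The induced list leaves out 1 gene that is not reported, after its values were seen. Other list genes named (POSTN, IL11, ACTA2, FOXA1 and KRT18 among them) were chosen after their values were seen, or are defining markers.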

Additional observations from a re-analysis of the deposited data

Results flagged for a closer look

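For 3 of the 10 genes the counting intervals of MDA-MB-231 and SUM159 cells lay on opposite sides of 0, as did those of 2748 (20.0%) of the 13733 genes compared in both lines. The log2 fold change in SUM159 cells minus that in MDA-MB-231 cells was -0.88 for TGFBR1 (-0.72 and 0.16), -2.61 for TGFBR3 (-1.86 and 0.75) and -1.83 for ENG (-0.85 and 0.98). The signs were the same under every scaling run. These differences between the lines were not tested, as 1 library stands for each treatment of a line.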

How the results depend on the processing

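TGFBI and TGFB1I1 were at least 1.5-fold lower in both lines under total-count scaling, DESeq2 size factors, TMM over the 4 libraries and a prior count of 2. With the main scaling they were also at least 2-fold lower, but TGFB1I1 in the MDA-MB-231 line was not with total counts (-0.80). Scaling by total counts gave 4408 genes higher and 1146 lower in the MDA-MB-231 line and 5135 and 2004 in SUM159 cells, so that 79.4% and 71.9% of the calls were higher, against 53.7% and 49.8% with TMM. A fold change of at least 2 gave 1370 and 779 genes in the MDA-MB-231 line and 1996 and 1676 in SUM159 cells, with 0 of the 10 genes higher in the MDA-MB-231 line and 4 lower in SUM159 cells, without TGFBR1 and ENG. A mean of at least 100 counts gave 1114 genes higher and 1676 lower in the MDA-MB-231 line (39.9% of calls higher), 1 of the 10 genes among the higher ones (TGFBR3), and 1422 higher and 2250 lower in SUM159 cells. Every gene with at least 1 count gave 9089 and 5693 genes in the MDA-MB-231 line and 11750 and 6844 in SUM159 cells, since more genes were compared. The signs of TGFBR2 in the MDA-MB-231 line and of TGFB1 and TGFB3 in SUM159 cells turned with scaling by total counts, that of TGFBR2 also with TMM over the 4 libraries (0.014), and none of these was past 1.5-fold.

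The shared test gave 41 genes higher and 55 lower with DESeq2, which left 2497 genes without an adjusted p, 153 and 145 when all genes with a count are tested, and 0 and 0 without cell line. Of the 10 genes, 2 were lower with DESeq2 and 2 with every gene. Apart from fewer or more genes tested, the cause was not tested. Setting genes with 3 or fewer counts at their bound moved the median of 1 list, the TNBC receptors in SUM159 cells, from 0.94 to 0.68. Depth limits TGFB3, TGFBR3L and, in the MDA-MB-231 line, ENG. Within a line, no paired analysis was possible because it has 1 library per treatment, and the shared test takes the line as its block.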
